A study of Rattus norvegicus with 6 samples.

Results

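The transcripts of the mitochondrial genome were described in 6 RNA-seq libraries from H9c2 cells, a rat line established from embryonic heart tissue. The members are the 37 of 26126 entries of the count table whose identifier starts with Mt- or AY172581: 13 named protein-coding genes and 24 numbered AY172581 entries for mitochondrial rRNAs and tRNAs. The files do not pair the AY172581 numbers with genes, so these entries carry their number only, and most are given as a group. In every library the cells went through simulated ischemia-reperfusion, which the labels spell "Stimulated". Per the labels' protocols, ischemia was an acidic buffer (pH 6.2) with 5.6 mM 2-deoxyglucose, a blocker of glycolysis, and 20 mM lactate, under 95% nitrogen and 5% carbon dioxide. The chamber was flushed for 30 min and then stayed closed for 1.5 to 3.5 h, and no time of reperfusion is stated. The 3 control libraries carry a control adenovirus and the 3 PERK-labelled libraries the adenovirus adPERK. For neither virus do the labels state a promoter or dose. PERK is the endoplasmic reticulum kinase that phosphorylates eIF2 alpha in the integrated stress response, and the series title links that response to protein translation in mitochondria.

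Mitochondrial DNA is a small circle present in many copies per cell. It encodes core subunits of respiratory complexes I, III, IV and V, and the rRNAs and tRNAs that the organelle's own ribosomes use to make them. Both strands are copied by the RNA polymerase POLRMT into long transcripts, which are cut at the tRNAs into separate mRNAs and rRNAs. Nearly all mRNAs lie on the heavy strand, and Mt-nd6 is the exception, on the light strand. All other subunits, and all the factors that copy, process and translate mitochondrial RNA, are encoded in the nucleus. Heart muscle depends on this system for most of its ATP.

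Eif2ak3, which encodes PERK, was not higher in the PERK-labelled libraries and so does not check their label: it stood at 26.4, 26.9 and 24.0 CPM with the control virus (replicates 1 to 3 in order) and 26.5, 26.5 and 26.0 CPM with adPERK (same order). CPM is counts per 1000000 of the library total after TMM scaling, which corrects for library composition. Every direction below is thus drawn from the labels alone. Total counts ranged from 77923398 to 119087414 per library. Control replicate 3 stood apart from the other libraries: 19287 entries were above 0 in it, against 15377 to 16685 elsewhere. Olfactory receptor genes, which are used mainly in the nose, were above 0 for 45.4% of 1090 genes in it, against 6.24% (control replicate 2) to 14.5% (control replicate 1) elsewhere. Values without control replicate 3 are given beside the results it moves most. The 7 myoblast markers chosen for H9c2 cells were all present, with Myog, a factor of muscle differentiation, at 474, 491 and 493 CPM with the control virus (replicates 1 to 3 in order) and 389.7, 408 and 401 CPM with adPERK (same order). Myog was itself lower in the PERK-labelled libraries (log2 fold change -0.28, SE 0.032, edgeR adjusted p = 0.0137), and Vim, an intermediate filament of mesenchymal cells, was above every control library in all 3 without passing (log2 fold change 0.19, SE 0.034, edgeR adjusted p = 0.0677). The rest of the list had overlapping groups and did not pass. Its log2 fold changes were -0.10 (Myod1), -0.066 (Des), 0.087 (Acta2), -0.033 (Actc1) and 0.029 (Tnnt2). The part of the differences in Myog and Vim in the mitochondrial values was not tested. Of 5 markers of differentiated cardiomyocytes, Nppa was at 0 in all 6 libraries and the summed level of the list was at most 0.809 CPM. The labelled source is heart, and the 5 markers of this list were thus at or near 0. That does not hold for every heart muscle gene. Tnnt2, cardiac troponin T, was placed in the myoblast list above. Tnnt2 stood at 163, 171 and 174 CPM with the control virus and 183, 160 and 175 CPM with adPERK (same order). Actc1, cardiac actin, also there, was at 5.07, 5.63 and 5.83 CPM with the control virus and 5.54, 5.80 and 4.80 CPM with adPERK. The summed level of the leukocyte markers was 8.46 to 12.1 CPM in control and 9.98 to 11.04 CPM in PERK-labelled libraries. Most of it was Cd14, with Ptprc, found on all leukocytes, at 0.21 CPM or less. The summed level of the endothelial markers reached 1.99 and 0.919 CPM. Most of it was Tek, at 1.56, 1.29 and 1.34 CPM with the control virus and 0.638, 0.877 and 0.860 CPM with adPERK. The groups of Tek did not overlap, and it did not pass (log2 fold change -0.82, SE 0.23, edgeR adjusted p = 0.225). The epithelial list summed to 39.0 to 40.4 and 41.0 to 41.7 CPM, nearly all of it the keratin Krt8, with Epcam at or near 0.

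Mitochondrial entries took about the same share of each library in both groups. Their share of all counts was 17.2, 16.7 and 17.0% with the control virus (replicates 1 to 3 in order) and 17.7, 16.5 and 16.7% with adPERK (same order). The control values lie inside the range of the PERK-labelled ones (means 16.9% ± 0.278 and 16.9% ± 0.632, SD, n = 3 each, exact two-sided permutation p = 1.00). With 3 against 3 libraries this exact test cannot go below p = 0.1. Most of the share belonged to 2 numbered entries, AY172581.24 and AY172581.9, with 15.2, 14.6 and 14.8% of counts with the control virus and 15.6, 14.4 and 14.6% with adPERK. The 13 mRNAs took 2.02, 2.00 and 2.15% and 2.06, 2.06 and 2.12%, and the other 22 AY172581 entries under 0.01% in each library. Shares are of all counted RNA, so less mitochondrial RNA per cell, fewer mitochondrial genomes and fewer cells of one kind cannot be told apart. Counts were not divided by gene length, so values below compare libraries and not genes.

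No mitochondrial entry passed the test between the groups. Of the 37 entries, 36 passed the low-count filter, and 0 of the 36 had an adjusted p under 0.05 in edgeR's quasi-likelihood test, where 0.421% of all 14488 tested entries did. DESeq2 and limma voom also called 0, but DESeq2 gave no adjusted p to most AY172581 entries, so it could not call those. At an unadjusted p under 0.05 in edgeR there were 2, Mt-co1 and AY172581.2, against 11.2% of all tested entries. These were also the only 2 whose groups did not overlap, which is 5.56% of the 36, against 18.2% of all tested entries. The median log2 fold change was -0.090, with 28 values below 0 and 8 above, beside a median of -0.0045 over all tested entries. That balance rested on 1 library: without control replicate 3 the median was 0.054 and 26 of 36 lay above 0. For the 13 mRNAs the 95% intervals of the fold change ran at most from 0.702-fold (Mt-nd6) to 1.11-fold (Mt-cyb). The entry that failed the filter, AY172581.17, had 2 or 3 counts in each library.

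**Figure D1:**
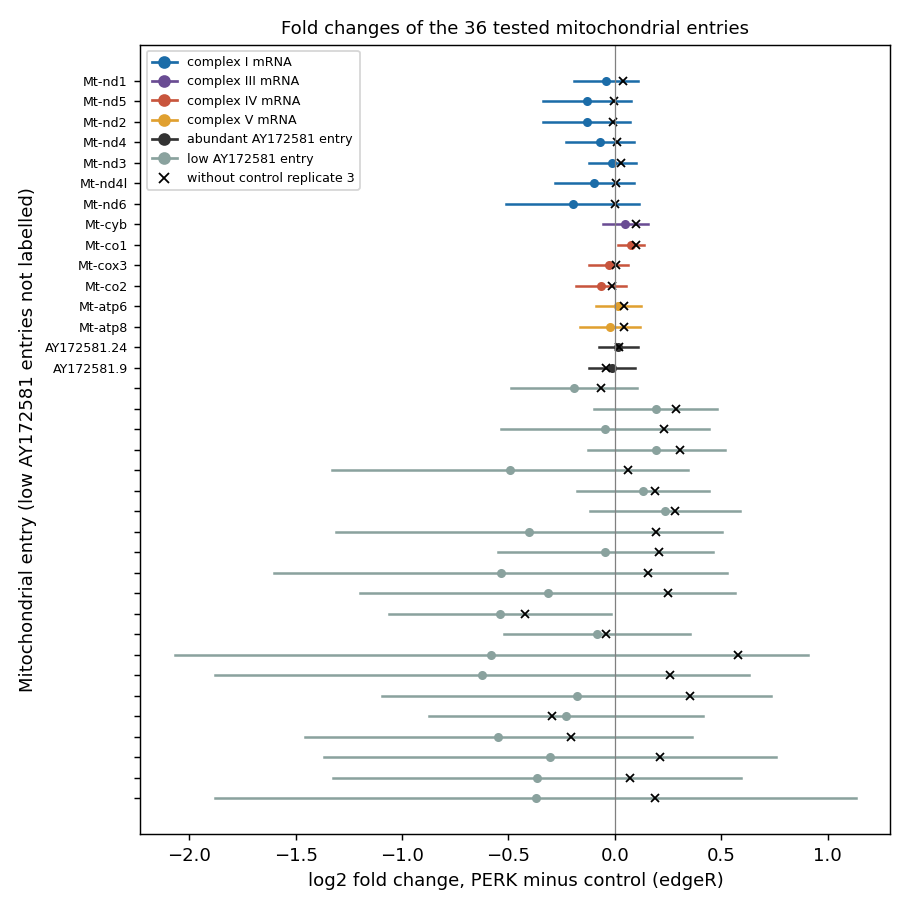
Log2 fold changes (PERK minus control, edgeR) of the 36 tested mitochondrial entries, with 95% intervals as lines and, as crosses, the value without control replicate 3. The 13 mRNAs lie between -0.20 and 0.077, and most low AY172581 entries move right when control replicate 3 is left out.

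Complex IV, cytochrome c oxidase, passes electrons to oxygen, and its catalytic core is encoded by Mt-co1, Mt-co2 and Mt-cox3. Mt-co1, the subunit that holds the site of oxygen reduction, was at 12539, 12048 and 12906 CPM with the control virus (replicates 1 to 3 in order) and 13310.1, 12949 and 13289 CPM with adPERK (same order). All 3 PERK-labelled libraries lay above all 3 control libraries, though the closest pair, control replicate 3 and PERK replicate 2, differed by little. The difference was small and did not pass the test (log2 fold change 0.077, 95% interval 0.015 to 0.14, edgeR adjusted p = 0.330, unadjusted p = 0.0202). It was 0.10 without control replicate 3, with adjusted p = 0.258. Mt-co2, which takes electrons from cytochrome c, did not share that order, with 1929.9, 1853 and 2081 CPM with the control virus and 1952, 1786 and 1875 CPM with adPERK. Its groups overlapped, with control replicate 3 highest and PERK replicate 2 lowest (log2 fold change -0.063, SE 0.051, edgeR adjusted p = 0.705). Without control replicate 3 the value was -0.015. Mt-cox3, the third core subunit, was at 2294, 2232 and 2433 CPM with the control virus and 2281, 2209.6 and 2326 CPM with adPERK. Control replicate 3 was again highest, and the other 5 libraries lay within a narrow band (log2 fold change -0.030, SE 0.040, edgeR adjusted p = 0.834). Its value was 0.0060 without that library. Summed over the 3 genes, complex IV mRNAs came to 16764, 16133 and 17420.1 CPM with the control virus and 17543, 16945 and 17490.3 CPM with adPERK. The groups overlapped (mean log2 difference 0.047, and 0.075 without control replicate 3, exact two-sided permutation p = 0.2).

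Complex III passes electrons from ubiquinol to cytochrome c, and Mt-cyb, cytochrome b, is its one subunit from mitochondrial DNA. Mt-cyb was at 1042, 1057 and 1156 CPM with the control virus (replicates 1 to 3 in order) and 1103, 1111 and 1154 CPM with adPERK (same order). Control replicates 1 and 2 were the lowest, control replicate 3 the highest, and the PERK-labelled libraries lay between (log2 fold change 0.049, SE 0.046, edgeR adjusted p = 0.747). The value was 0.10 without control replicate 3, where the unadjusted p was 0.0341 and the adjusted p 0.456.

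Complex V is the ATP synthase, and Mt-atp6 and Mt-atp8 encode parts of its membrane sector, through which protons flow. Mt-atp6 was at 284, 296 and 308 CPM with the control virus (replicates 1 to 3 in order) and 283, 301 and 314 CPM with adPERK (same order). The groups overlapped (log2 fold change 0.016, SE 0.046, edgeR adjusted p = 0.934). Mt-atp8, whose reading frame overlaps that of Mt-atp6 on the same mRNA, was at 208, 199 and 233 CPM with the control virus and 215, 199.7 and 215 CPM with adPERK. Here too the groups overlapped (log2 fold change -0.024, SE 0.061, edgeR adjusted p = 0.926). Without control replicate 3 the values were 0.045 for Mt-atp6 and 0.045 for Mt-atp8. Reads from the shared mRNA could be split between this pair by the counting, and its settings are not stated. The ratio of Mt-atp8 to Mt-atp6 counts was 0.733, 0.671 and 0.758 with the control virus and 0.760, 0.664 and 0.684 with adPERK, so it varied as much within a group as between groups.

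Complex I, NADH dehydrogenase, has the most subunits from mitochondrial DNA, 7 genes of its membrane arm. All 7 were highest in control replicate 3 and all 7 had a log2 fold change below 0, from -0.20 (Mt-nd6) to -0.011 (Mt-nd3), none past the test. Without control replicate 3, 4 of the 7 lay above 0 and the range was -0.010 (Mt-nd2) to 0.040 (Mt-nd1). Mt-nd1, part of the site where ubiquinone binds, was at 502, 502 and 588 CPM with the control virus (replicates 1 to 3 in order) and 489, 520.2 and 538 CPM with adPERK (same order). Only control replicate 3 left the range of the PERK-labelled libraries. Mt-nd2, a proton-pumping subunit, was at 393, 399 and 501 CPM with the control virus and 375, 391 and 414 CPM with adPERK. Its log2 fold change of -0.13 became -0.010 without control replicate 3. Mt-nd5, the pumping subunit at the far end of the membrane arm, was at 425, 438 and 551 CPM with the control virus and 428, 419 and 446 CPM with adPERK. As with Mt-nd2, its difference of -0.13 was -0.0022 without that library. Mt-nd4, another proton-pumping subunit, was at 279, 273 and 322 CPM with the control virus and 266, 270.1 and 297 CPM with adPERK. Mt-nd4l, a small subunit whose frame overlaps that of Mt-nd4 on a shared mRNA, was at 85.4, 81.0 and 101 CPM with the control virus and 80.5, 84.1 and 85.8 CPM with adPERK. The 2 genes kept a nearly fixed ratio of counts, 0.306, 0.297 and 0.315 with the control virus and 0.302, 0.311 and 0.289 with adPERK. Mt-nd3, a small subunit near the junction of the 2 arms, was at 224, 205 and 232 CPM with the control virus and 223, 216 and 217 CPM with adPERK, the steadiest of the 7 across control libraries (SD 6.50% of the mean). In these last 3 genes the groups overlapped as well, with log2 fold changes of -0.070 for Mt-nd4, -0.10 for Mt-nd4l and -0.011 for Mt-nd3. Summed, the 7 came to 1977, 1957 and 2389.7 CPM with the control virus and 1925, 1966 and 2060.3 CPM with adPERK (mean log2 difference -0.082, and 0.012 without control replicate 3, exact two-sided permutation p = 0.6).

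Among the 13 mRNAs, Mt-nd6, from the light strand, varied most across the control libraries. It stood at 67.8, 60.4 and 92.5 CPM with the control virus (replicates 1 to 3 in order) and 64.1, 65.1 and 63.0 CPM with adPERK (same order). The SD of the PERK-labelled libraries was 1.65% of their mean, while the control SD was 22.8% of the mean, set by control replicate 3. The groups differed by a log2 fold change of -0.20 (SE 0.14, edgeR adjusted p = 0.638) and -0.00079 without that library. Per 1000 counts of the other 12 mRNAs, Mt-nd6 had 3.36, 3.09 and 4.32 counts with the control virus and 3.05, 3.18 and 2.98 with adPERK, and the groups overlapped (mean log2 difference -0.21, and -0.068 without control replicate 3, exact two-sided permutation p = 0.2). The sources used here do not say whether the counting used strand. Light-strand RNA that lies opposite heavy-strand genes, and RNA opposite Mt-nd6 itself, therefore cannot be told apart from these mRNAs.

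**Figure D2:**
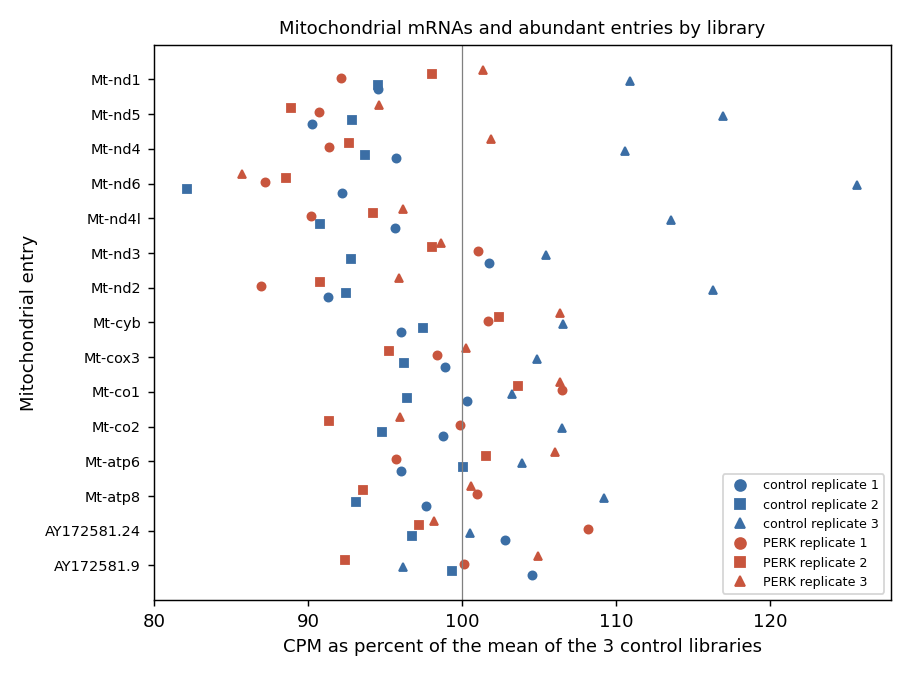
CPM of the 13 mitochondrial mRNAs and the 2 abundant AY172581 entries in each library, as percent of the mean of the 3 control libraries. Control replicate 3 (blue triangles) is the highest of 6 libraries for 11 of the 13 mRNAs, and Mt-co1 is the mRNA whose PERK-labelled libraries all lie above the control libraries.

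Shares within the 13 mRNAs put 2 quantities in groups that did not overlap. Of all tested entries, 18.2% had groups that did not overlap, so such an order is common in these libraries. Mt-co1 made up 61.8, 61.3 and 60.0% of the counts of the 13 mRNAs with the control virus and 63.2, 63.1 and 62.6% with adPERK, and these groups do not overlap. Complex I mRNAs made up 9.75, 9.96 and 11.1% and 9.14, 9.58 and 9.70%, which do not overlap either, although control replicate 1 and PERK replicate 3 nearly met. Both comparisons gave the smallest p that 3 against 3 libraries allow (exact two-sided permutation p = 0.1). After Benjamini-Hochberg adjustment over the 25 sums, shares and ratios computed, it was 0.833. With that floor neither could fall under 0.05, so this test cannot decide either difference. The 2 shares have 1 denominator and are not independent. Without control replicate 3 the mean log2 difference of the Mt-co1 share went from 0.044 to 0.031 and that of the complex I share from -0.12 to -0.058.

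The 2 abundant numbered entries, whose share of counts is given above, did not pass the test. AY172581.24 was at 138453, 130359 and 135390.0 CPM with the control virus (replicates 1 to 3 in order) and 145727, 130937 and 132235 CPM with adPERK (same order). The groups overlapped, with control replicates 1 and 3 above PERK replicates 2 and 3 (log2 fold change 0.017, 95% interval -0.074 to 0.11, edgeR adjusted p = 0.916). AY172581.9 was at 13897, 13206 and 12779.9 CPM with the control virus and 13309, 12287 and 13947 CPM with adPERK (log2 fold change -0.012, 95% interval -0.12 to 0.10, edgeR adjusted p = 0.952, and -0.040 without control replicate 3). Neither was highest in control replicate 3, where 11 of the 13 mRNAs were highest. The counts of the pair came to 7.51, 7.31 and 6.89 times those of the 13 mRNAs with the control virus and 7.55, 6.98 and 6.88 times with adPERK (mean log2 difference -0.020, and -0.055 without control replicate 3, exact two-sided permutation p = 0.9). AY172581.24 had 9.96, 9.87 and 10.6 times the counts of AY172581.9 with the control virus and 10.9, 10.7 and 9.48 times with adPERK, again with overlap (mean log2 difference 0.029, and 0.061 without control replicate 3).

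The low AY172581 entries spread more among the control libraries than among the PERK-labelled ones, with a median SD of 38.2% and 10.0% of the mean. The summed level of all 22 was 61.1, 52.3 and 89.0 CPM with the control virus and 61.1, 60.7 and 62.6 CPM with adPERK. Control replicate 2 was thus the lowest of the 6 libraries and control replicate 3 the highest, with the PERK-labelled libraries close together (mean log2 difference -0.10, and 0.12 without control replicate 3, exact two-sided permutation p = 0.8). Of the 21 tested, 16 were highest in control replicate 3 and 14 lowest in control replicate 2. Over all 36 tested mitochondrial entries, 27 (75%) were highest in control replicate 3 and 19 (52.8%) lowest in control replicate 2, beside 18.7% and 18.1% of all tested entries. In control replicate 3, 10 of the 21 stood at over 2 times the mean of control replicates 1 and 2, and another 3 at over 1.5 times. The widest spread belonged to AY172581.16, with 1.00, 0.399 and 3.34 CPM with the control virus (replicates 1 to 3 in order) and 0.840, 1.35 and 0.961 CPM with adPERK (same order). Its counts were 33 in control replicate 2 (95% Poisson interval 22.7 to 46.3) and 260 in control replicate 3 (229 to 294), a gap beyond counting error. Its log2 fold change came to -0.58 (SE 0.65, edgeR adjusted p = 0.798) and 0.58 without control replicate 3. Over the 21 tested entries the median log2 fold change was -0.31, and without that library it was 0.19. The order of the libraries at both ends was that of the olfactory receptor genes, which were above 0 least often in control replicate 2 and most often in control replicate 3. Between these ends the orders differed. The part of that background in the mitochondrial values was not tested.

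**Figure D3:**
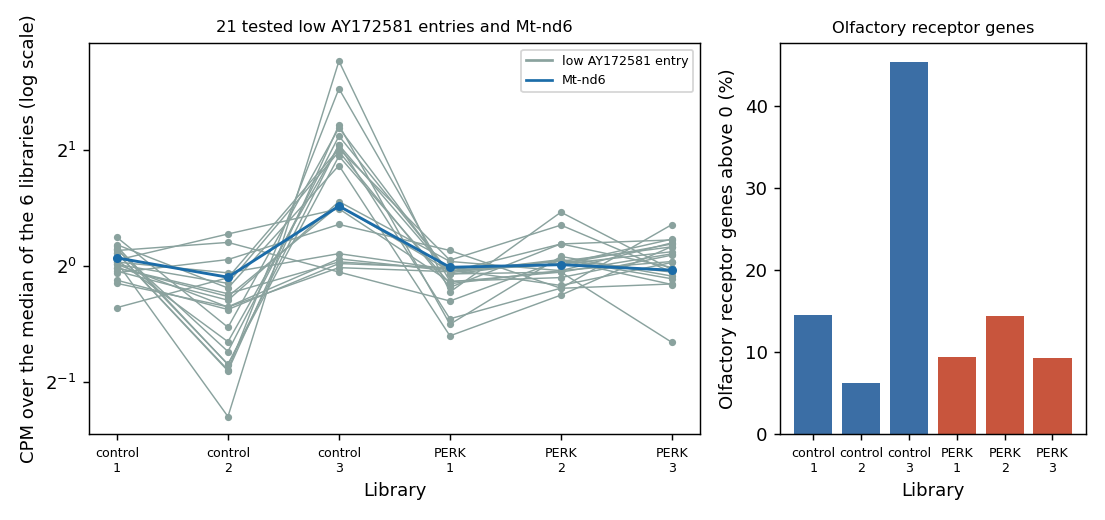
Left, CPM of the 21 tested low AY172581 entries (grey) and of Mt-nd6 (blue) in each library over the entry's own median of the 6 libraries, on a log scale; the lines join values of 1 entry and imply no order of libraries. Right, the percent of 1090 olfactory receptor genes with a count above 0, 45.4% in control replicate 3 and 6.24% in control replicate 2.

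Among the low entries, AY172581.2 had groups that did not overlap. It stood at 1.63, 1.90 and 2.21 CPM with the control virus (replicates 1 to 3 in order) and 1.43, 1.51 and 0.994 CPM with adPERK (same order), from 89 to 181 counts per library. PERK replicate 3 was the lowest, and the 2 other PERK-labelled libraries lay just under control replicate 1. This is a log2 fold change of -0.54 (SE 0.23, unadjusted p = 0.0446, edgeR adjusted p = 0.425), and -0.42 without control replicate 3. The authors' deposited table gives AY172581.2 a log2 fold change of -0.52 with adjusted p = 0.0324. It is the 1 mitochondrial entry with adjusted p under 0.05 in the authors' deposited table, out of 36 with an adjusted p there, where 2.27% of 17483 entries pass. DESeq2 on these counts gave AY172581.2 an unadjusted p of 0.0748 and no adjusted p, because its own filter on low means removed it. For Mt-co1 the authors' deposited table gives 0.081 with adjusted p = 0.385.

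Nuclear genes of mitochondrial RNA and its translation, of mitochondrial DNA replication and of biogenesis did not pass the test either. Of 89 symbols in 6 lists, 85 were matched and 84 tested, and 0 passed the edgeR test (0.421% of all entries did). The median log2 fold change was 0.014, beside -0.0045 over all tested entries. An unadjusted p under 0.05 was found for 5, all above 0, beside 11.2% of all tested entries. The groups did not overlap for 8 of the 84, beside 18.2% of all tested entries. In the transcription list (9 tested, median -0.029) Tfam, which packages mitochondrial DNA and starts its transcription, was 22.9 ± 1.14 CPM with the control virus and 21.6 ± 0.922 CPM with adPERK (SD, n = 3, log2 fold change -0.088, SE 0.062, edgeR adjusted p = 0.653). Mterf3, a regulator of mitochondrial transcription, was 26.9 ± 3.21 CPM with the control virus and 28.7 ± 0.845 CPM with adPERK (log2 fold change 0.092, and 0.19 without control replicate 3). In RNA processing and decay (21, median 0.010) Lrpprc, which stabilises mitochondrial mRNAs, had a log2 fold change of -0.0056, and Rexo2, an exonuclease that clears short RNAs, 0.11 (0.049 without control replicate 3). Among RNA modification genes (16, median 0.032) Trnt1, which adds the CCA end to tRNAs, had groups that did not overlap (log2 fold change 0.23, SE 0.082, edgeR adjusted p = 0.336). In the same list the groups of Mrm1, named here after its values were seen, did not overlap either. Its difference was larger (log2 fold change 0.33, SE 0.087, edgeR adjusted p = 0.204). Elsewhere in the 6 lists this held for Pnpt1 and Grsf1, higher with adPERK, and for Mtg2, lower with adPERK. It also held for Tk2, Esrra and Tufm, given below. Pus1, a pseudouridine synthase, had a log2 fold change of 0.071.

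In replication and nucleotide supply (14, median 0.035) the protease gene Lonp1 and the DNA polymerase gene Polg had log2 fold changes of 0.054 and 0.031, and of 0.079 and -0.021 without control replicate 3. The largest value over the 6 lists was that of Tk2, the mitochondrial thymidine kinase, named here after its values were seen. Tk2 was at 12.1, 12.8 and 12.2 CPM with the control virus (replicates 1 to 3 in order) and 15.9, 17.2 and 16.0 CPM with adPERK (same order), with every PERK-labelled library above every control library (log2 fold change 0.41, SE 0.075, edgeR adjusted p = 0.0749). It did not pass edgeR's test, and it passed with DESeq2 (adjusted p = 0.0019), limma voom (0.0431) and edgeR's robust fit (0.0448). Among regulators of biogenesis (9, median 0.034) Gabpa and Esrra, transcription factors of respiratory genes, were at 0.034 (0.051 without control replicate 3) and 0.10. Among translation factors (15, median -0.057) Tufm and Gfm1, elongation factors of the mitochondrial ribosome, were at 0.10 and 0.12. These libraries hold RNA levels and do not measure translation in mitochondria.

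Respiratory subunits from mitochondrial and from nuclear DNA kept about the same proportion. The 13 mRNAs had 2.64, 2.66 and 2.89 times the counts of the 71 nuclear subunit genes of complexes I, III, IV and V with the control virus and 2.77, 2.65 and 2.83 times with adPERK (mean log2 difference 0.0098, and 0.052 without control replicate 3, exact two-sided permutation p = 0.9). The groups overlapped, and control replicate 3 was highest. Of the 70 nuclear genes tested 0 passed, with a median log2 fold change of 0.018. For complex I the nuclear median was 0.011 (35 tested) beside -0.10 for the 7 mitochondrial genes, and the latter was 0.0049 without control replicate 3. Ndufv1, a catalytic subunit of complex I, was at 0.14. For complex III the nuclear median was 0.0021 (9 tested), with Uqcrc2 at 0.083 and Cyc1, cytochrome c1, at 0.025. For complex IV it was 0.021 (11 tested), beside -0.030 for the 3 mitochondrial genes, with Cox6a1 at 0.027 and Cox4i1 at -0.024. For complex V it was 0.024 (15 tested), beside -0.0039 for the 2 mitochondrial genes. Atp5b and Atp5a1, which encode parts of the catalytic head, were at 0.076 and 0.028. The summed nuclear complex V level was 3249, 3163 and 3181 CPM with the control virus and 3294, 3314 and 3249.6 CPM with adPERK. These groups touched but did not overlap (exact two-sided permutation p = 0.1, adjusted 0.833). That p is the smallest this test can give here, so it cannot decide the difference. One nuclear value stood far from the rest, that of Ndufa1, named here after its values were seen. Ndufa1, an accessory subunit of complex I, was at 14.4, 14.4 and 13.6 CPM with the control virus (replicates 1 to 3 in order) and 14.7, 41.6 and 25.7 CPM with adPERK (same order). PERK replicate 2 was far above the other libraries, and the test did not pass (log2 fold change 0.95, SE 0.31, edgeR adjusted p = 0.287).

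**Figure D4:**
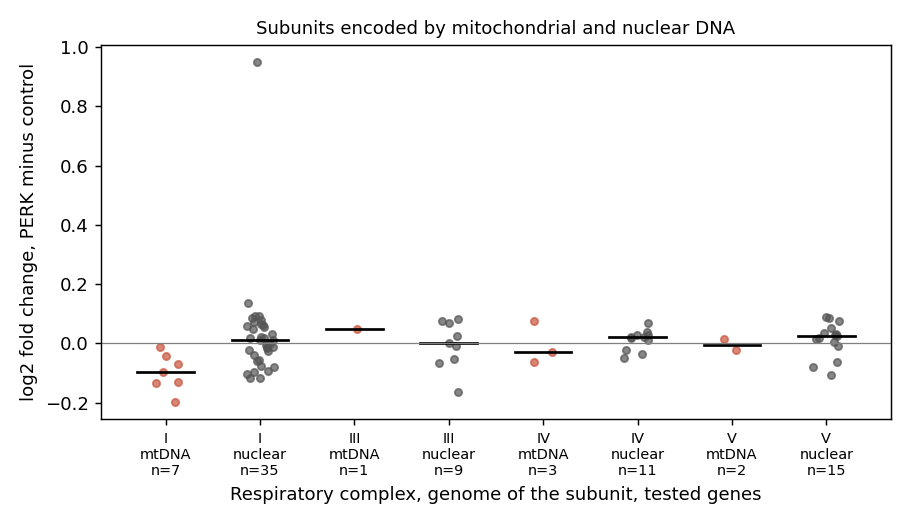
Log2 fold changes (PERK minus control, edgeR) of respiratory subunits by complex and by the genome that encodes them, with each point a gene and the black line the median of each column. The nuclear medians lie between 0.0021 and 0.024, the 7 mitochondrial complex I genes all lie below 0, and the single high point is Ndufa1.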

How the data were processed

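RNA was measured in 3 control and 3 PERK-labelled libraries, prepared from total RNA with a TruSeq kit (Illumina) according to the labels. The authors' deposited table holds whole-number counts per entry, used as deposited. Its normalized signal, deposited by the authors, equals counts over 1 factor per library, as tested on the file, and entered no test. Its log2 fold changes and adjusted p-values are from the authors' own deposited comparison. Bowtie 0.12.2 and the mouse build mm9 are named, per the submitters' processing notes, while entries carry rat names. The sources used here do not give the counting program or its build. A second table has 6 columns of values whose names match no label, and was not used. No gene lengths or sequences of mitochondrial DNA were used here.

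Counts were fitted in edgeR 4.0.16 (R 4.3.3) with TMM scaling, filterByExpr (minimum count 10, 14488 entries kept) and glmQLFTest, group as the only term, with Benjamini-Hochberg adjustment over all tested entries. Sums, shares and ratios were compared by exact two-sided permutation tests on log2 values, or on the percentage for the difference in mitochondrial share given with the alternatives. The labels do not say whether replicates are separate cultures. The p-values therefore reflect only how these libraries vary, which may be technical. Depth was 77923398 to 119087414 counts per library. Among low counts of other entries, 24.8% of 23517 values from 6 to 124 were multiples of 6. For the 22 low mitochondrial entries 11.3% of 53 values in that range were multiples. The share that counts without such steps would give was not computed. A low count may therefore be fewer fragments, which these shares alone do not settle. Poisson intervals cover counting error only.

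The planned ratio of rRNA to mRNA was computed with the 2 abundant AY172581 entries, since the files do not name the rRNAs. The naming rule covers every mRNA, both abundant entries, the tested AY172581 entries, and of each nuclear list the called genes or else the 2 most abundant. Of the tested low entries only those the results turn on are printed by number, and 1 nuclear gene under the rule is not reported here. Older symbols were matched through a RefSeq table of the rat assembly GRCr8, used for names only. Members, lists, tests and alternatives were chosen with earlier results of these data known. The alternatives were other scalings, DESeq2 1.42.0, limma 3.58.1 voom, a robust fit, other low-count filters, a replicate block, counts divided by 6, other sums in each ratio and leaving out each library. The fits were tested on simulated data, with changes put only into entries of at least 5 CPM. Most low AY172581 entries lie under that level, so the simulation does not cover them.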

Additional observations from a re-analysis of the deposited data

How the results depend on the processing

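The absence of called mitochondrial entries held in each of the 10 other fits and each of the 6 fits without 1 library. There 0 of 34 to 37 tested entries were called, or 0 of 18 where at least 5 CPM in 3 libraries were required. With DESeq2 most low AY172581 entries had no adjusted p, so they could not be called there. In the main fit 0.421% of all 14488 tested entries were called, and 0 among the members is near that share. An unadjusted p under 0.05 was found for 0 to 5 of the tested mitochondrial entries (1 with DESeq2, 1 with limma voom, 5 without control replicate 2). The 61 calls over all entries became 33 with library totals, 392 with DESeq2, 110 with limma voom, 132 with the robust fit, 94 without a low-count filter, 106 with at least 5 CPM in 3 libraries, 93 with counts divided by 6, 9 with a replicate block, and, with 1 library left out, 12 (PERK replicate 1 absent) to 38 (control replicate 1 absent). The 84 nuclear genes of mitochondrial expression, DNA replication and biogenesis had 1 call, Tk2, with DESeq2, limma voom and the robust fit. They had 0 in the others. Same-numbered libraries deviated together with correlations of -0.18, 0.039 and 0.034, and differently numbered ones with -0.16 to 0.13. These values show no pairing by number, but 3 libraries per group are too few to settle it. The block changed no mitochondrial call. Without the most abundant mRNA, Mt-co1, the log2 difference in the ratio of abundant entries to mRNAs went from -0.020 to 0.051, and that of mitochondrial to nuclear subunit counts from 0.0098 to -0.062. The share difference ranged from -0.371 to 0.226 percentage points with 1 library left out, and the log2 difference of the abundant-entry ratio from -0.061 to 0.0071, of the Mt-nd6 ratio from -0.31 to -0.068 and of the ratio to nuclear subunits from -0.013 to 0.052. With library totals Mt-atp6 (-0.00069) and AY172581.24 (-0.00074) changed sign. None of the 38 entries followed by name, Tk2 and Ndufa1 not among them, was called in any fit, and 17 changed sign when 1 library was left out, with these ranges of log2 fold change: Mt-atp6 -0.018 to 0.056, Mt-nd3 -0.064 to 0.029, AY172581.9 -0.054 to 0.035, Lonp1 -0.0081 to 0.091, AY172581.24 -0.032 to 0.044, Lrpprc -0.029 to 0.015, Gabpa -0.0079 to 0.056, Mt-nd4l -0.16 to 0.0049, Mt-cox3 -0.059 to 0.0060, Mt-nd1 -0.082 to 0.040, Mt-nd4 -0.12 to 0.0092, Mt-atp8 -0.074 to 0.045, AY172581.16 -1.04 to 0.58, Polg -0.021 to 0.090, Cyc1 -0.017 to 0.068, Cox4i1 -0.045 to 0.016 and Eif2ak3 -0.020 to 0.060. Over all 6 libraries the tested low AY172581 entries had 190 counts or more and the mRNAs 39478 or more, and no comparison of depth with the number of libraries as the limit was made.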
